A study of Mus musculus with 2 samples.

Results

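The 10 genes described here are *Fos*, *Fosb*, *Fosl1*, *Fosl2*, *Jun*, *Junb*, *Jund*, *Egr1*, *Atf3* and *Ier3*, chosen by name from the 31053 genes that single cell sequencing listed for mouse brain pericytes (PCs) in primary culture, the mural cells that wrap brain capillaries. All 10 were found, each under 1 identifier, and all 10 were seen in 10% or more of the cells of at least 1 library, the rule used below for an expressed gene, which *Atf3* met through PC20 alone. They were read in cells of 2 libraries, 1 from a culture at passage 5 (PC5) and 1 from a culture at passage 20 (PC20). The PCs of each library came from the pooled brains of 6 female wild type C57BL/6N mice, aged 6-8 weeks, and no gene was altered and no agent was compared. According to the methods the 2 cultures were separate isolations plated on collagen in endothelial growth medium and kept in Pericyte Medium, which holds serum, from passage 2, while the deposited protocol describes 1 isolation and does not say whether it was repeated. By the account of the methods, which is used here, an effect of passage cannot be told apart from one of isolation.

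The unit is the unique molecular identifier (UMI), a barcode that marks 1 captured RNA molecule near its 3' end. A barcode counted as a cell if it held over 1000 genes and its mitochondrial share was below 20%, which left 9950 of 10629 barcodes and 223054273 UMIs in PC5, and 4749 of 4884 barcodes and 191122251 UMIs in PC20. A PC5 cell held a median of 21700 UMIs, a PC20 cell 33424, and 20 cell barcodes occurred in both libraries. Levels are CPM, the UMIs of a gene summed over the kept cells and scaled to 1000000 UMIs of the library, and log2 ratios set PC5 over PC20, so that positive values mean more in PC5. CPM is not divided by gene length, because 1 tag is read per molecule, but capture can still differ between genes. Positions are the spans of whole genes in GENCODE vM21 on GRCm38. The 95% intervals are exact and hold counting error alone. Since each passage had 1 library, no test between passages could be made and the spread between cultures is unknown, so every difference below is one between these 2 libraries.

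The label of the cells was weakly borne out by the markers. Of 9 PC markers 3 were expressed, and the summed level of all 9 was 67.2 CPM in PC5 and 10.6 CPM in PC20. *Pdgfrb*, the PDGF receptor that PCs need for recruitment, stood at 44.6 and 5.43 CPM, while *Rgs5*, *Kcnj8* and *Vtn* had 0 UMIs in PC20. The summed level of 4 fibroblast markers was 1302 CPM in PC5 and 101 CPM in PC20, that of 4 smooth muscle markers 283 and 49.6 CPM, that of 4 endothelial markers 13.6 and 0.235 CPM, and that of 4 astrocyte markers 151 and 229 CPM. Nearly all of the last is *Slc4a4* (143 and 229 CPM), and *Aldh1l1* of the same list ran the other way (7.35 and 0.0262 CPM). Most of the fibroblast sum is *Col3a1* (1158 and 101 CPM), while *Pdgfra* (88.6 and 0.131 CPM) and *Dcn* (51.3 and 0.167 CPM) were nearly absent in PC20. The smooth muscle sum in PC20 is nearly all *Acta2* (62.8 and 49.2 CPM), with *Tagln* at 219 and 0.230 CPM. Markers of microglia and oligodendrocytes summed to under 1 CPM in both libraries. Whether the mix of cells had a part in the differences below was not tested.

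Immediate-early genes are the first to be transcribed when a cell meets serum, growth factors, stretch or stress, and need no new protein for it. Several of them code for AP-1, a transcription factor made of a Jun protein (*Jun*, *Junb*, *Jund*) bound to itself or to a Fos protein (*Fos*, *Fosb*, *Fosl1*, *Fosl2*). Fos proteins cannot pair with themselves, so the supply of each partner sets which dimers can form. *Egr1* codes for a zinc finger factor induced by the same signals, *Atf3* for a stress-induced factor of the ATF/CREB family that can pair with Jun proteins, and *Ier3* for a small protein that affects survival under stress. *Fos*, *Junb* and *Egr1* transcripts come and go within a short time, whereas *Fosl1*, *Fosl2* and *Jund* transcripts are commonly sustained. By the account of the methods, the cultured cells were spun down and resuspended before they were loaded. How much of the levels and cell shares below arose in this handling was not tested, nor whether it differed between the libraries.

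The summed level of the 10 genes hardly differed, 1068 CPM for PC5 and 1063 CPM for PC20, with a log2 ratio of 0.0065 and a 95% interval from -0.0020 to 0.015. Beneath that sum 4 genes were higher in PC5 (*Fos*, *Fosl2*, *Junb*, *Egr1*) and 6 were higher in PC20 (*Fosb*, *Fosl1*, *Jun*, *Jund*, *Atf3*, *Ier3*), each with an interval that leaves out 0. Of all 10504 expressed genes, 48.9% were higher in PC5 and 51.1% in PC20, so the split of the 10 genes was near that of the background. A log2 ratio above 1 was found for 2 of the 10 (*Fosl2*, *Junb*) against 17.9% of the 10504, and a log2 ratio below -1 for 2 (*Fosl1*, *Atf3*) against 19.1%. The median log2 ratio was -0.25 over the 10 genes and -0.04 over the 10504.

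**Figure D1:**
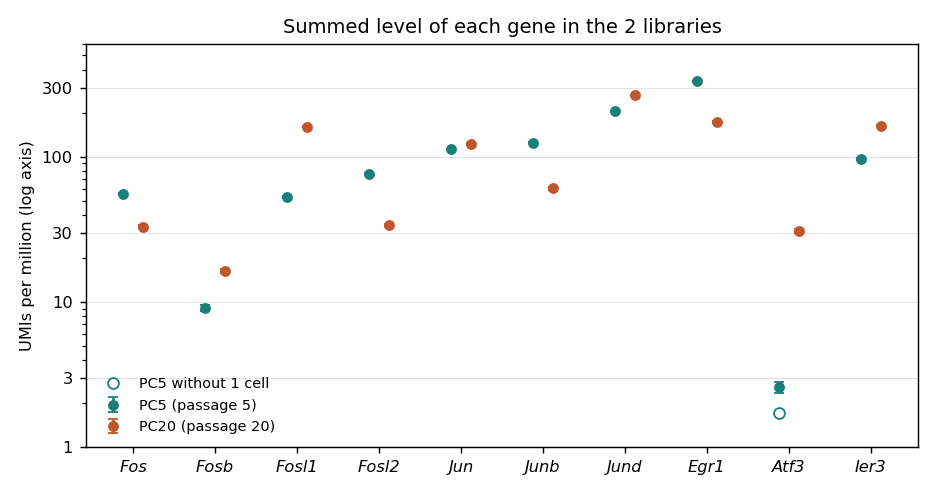
The level of each gene in CPM on a log axis, summed over the cells of PC5 (green) and PC20 (orange), with exact 95% Poisson intervals, most of them smaller than the points. *Fosl1* and *Atf3* lie far higher in PC20, and *Junb*, *Egr1*, *Fosl2* and *Fos* higher in PC5. The open circle is *Atf3* in PC5 without the 1 cell that held 189 of its UMIs.

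Among the Fos genes, *Fosl1* (also called Fra-1, chr19:5447547-5455946, plus strand) differed most. Its level was 52.6 CPM (95% interval 51.7 to 53.6) in PC5, and PC20 had 162 CPM (160 to 163), which gives a log2 ratio of -1.62 (-1.65 to -1.59). By level it ranked 8 of the 10 genes in PC5 and 4 in PC20. *Fosl2* (Fra-2, chr5:32135801-32157842, plus strand) ran the other way, with 76.0 CPM (74.8 to 77.1) for PC5 but 33.8 CPM (33.0 to 34.6) for PC20 and a log2 ratio of 1.17 (1.13 to 1.21). *Fos* itself (chr12:85473890-85477273, plus strand) was also higher in PC5, at 55.4 CPM (54.5 to 56.4) against 33.1 CPM (32.3 to 33.9), a log2 ratio of 0.75 (0.70 to 0.79). *Fosb* (chr7:19302696-19310051, minus strand) was scarce in both libraries, where PC5 had 9.08 CPM (8.69 to 9.49) and PC20 had 16.3 CPM (15.8 to 16.9), with a log2 ratio of -0.85 (-0.93 to -0.77).

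The make-up of the Fos family thus differed more than its sum, which was 193 CPM for PC5 and 245 CPM for PC20 (log2 ratio -0.34). In PC5 the family's UMIs were spread over *Fosl2* with 39.3% (38.9 to 39.8, Clopper-Pearson), *Fos* with 28.7% (28.3 to 29.1), *Fosl1* with 27.2% (26.8 to 27.7) and *Fosb* with 4.70% (4.51 to 4.91). In PC20 *Fosl1* alone held 66.0% (65.6 to 66.4), while *Fosl2* held 13.8%, *Fos* 13.5% and *Fosb* 6.67%.

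Of the Jun genes, *Jund* (chr8:70698949-70700616, plus strand), the most constantly expressed of them in most tissues, was the most abundant in both libraries. PC5 had 206 CPM (204 to 208) of it and PC20 had 266 CPM (263 to 268), a log2 ratio of -0.37 (-0.38 to -0.35). *Jun* (chr4:95049034-95052222, minus strand) was nearly level, at 113 CPM (111 to 114) and 123 CPM (122 to 125), a log2 ratio of -0.13 (-0.15 to -0.10) with 46.5% of the 10504 genes at a lower ratio. *Junb* (chr8:84974484-84978718, minus strand), which often restrains *Jun*, had 125 CPM (124 to 127) in PC5, more than the 60.6 CPM (59.5 to 61.7) of PC20, with a log2 ratio of 1.05 (1.02 to 1.08). The Jun family summed to 444 and 449 CPM. Within it *Jund* held 46.4% (46.1 to 46.7) in PC5 and 59.1% (58.8 to 59.4) in PC20, *Junb* 28.2% and 13.5%, and *Jun* 25.4% and 27.4%.

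**Figure D2:**
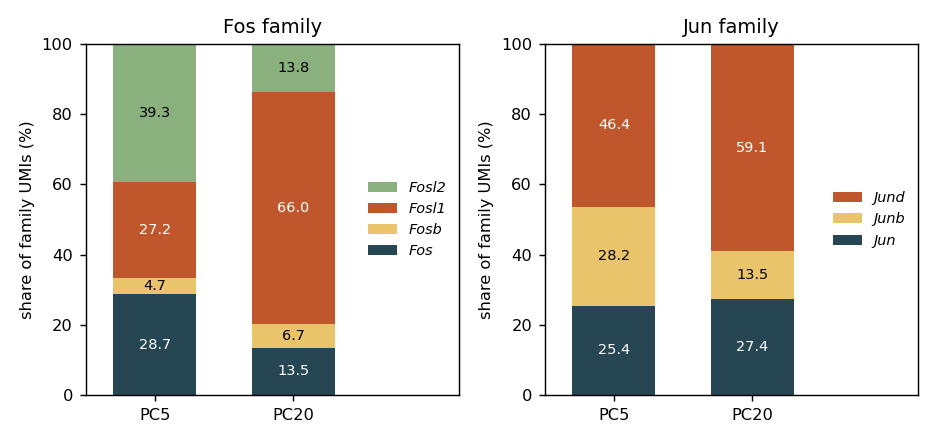
The share of each gene in the UMIs of the Fos family (left) and of the Jun family (right), in percent, for PC5 and PC20, with the value printed in each block. *Fosl1* takes 27.2% of the Fos family in PC5 and 66.0% in PC20, and *Jund* 46.4% and 59.1% of the Jun family.

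*Egr1* (chr18:34859823-34864984, plus strand) was the most abundant of the 10 genes in PC5, with 332 CPM (330 to 334), above 96.5% of the 10504 genes. In PC20 it ranked below *Jund* with 174 CPM (172 to 176), and its log2 ratio was 0.93 (0.91 to 0.95). *Ier3* (chr17:35821684-35822923, plus strand) was lower in PC5, where it had 96.2 CPM (94.9 to 97.5) against 164 CPM (162 to 166) in PC20, with a log2 ratio of -0.77 (-0.80 to -0.75). The intervals of *Ier3* and *Fosl1* overlapped in PC20, as did those of *Fosl2* and *Fos*, and in PC5 all neighbours in the order of levels were apart by more than their counting intervals.

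*Atf3* (chr1:191170296-191218039, minus strand) had the widest gap of the 10. PC5 held 574 UMIs or 2.57 CPM (2.37 to 2.79) and PC20 5879 UMIs or 30.8 CPM (30.0 to 31.6), so the log2 ratio was -3.58 (-3.71 to -3.46), and 2.24% of the 10504 genes had a lower ratio. A single PC5 cell held 189 of the 574 UMIs, or 32.9%, and the next highest cell held 10. Without that cell, an alternative chosen after seeing the data, *Atf3* was at 1.73 CPM in PC5 and the log2 ratio was -4.16 (-4.31 to -4.01). The same cell, with 27731 UMIs in all, also had the most *Junb* UMIs (34) and the most *Jund* UMIs (67) of any PC5 cell. For the other 9 genes no cell held over 1% of the UMIs of its library.

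The promoters of 4 of the genes are shown because *Fos* and *Junb* varied together between cells, as described below, and *Jun* and *Atf3* less so. RefSeq on GRCm38.p6 gave a start site for 8 of the 10, and *Fosl1* and *Egr1* had no entry in the table used. Each line gives the 150 bases upstream of the start, 5' to 3' on the gene's strand, with motif matches in capitals.
*Fos*, chr12:85473740-85473889, plus strand: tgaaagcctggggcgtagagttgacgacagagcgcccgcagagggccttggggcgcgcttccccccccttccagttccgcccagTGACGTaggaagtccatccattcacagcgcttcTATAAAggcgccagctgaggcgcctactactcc
*Junb*, chr8:84978749-84978898, minus strand: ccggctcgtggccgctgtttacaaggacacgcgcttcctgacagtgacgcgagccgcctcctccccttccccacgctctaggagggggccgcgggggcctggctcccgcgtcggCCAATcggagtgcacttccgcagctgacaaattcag
*Jun*, chr4:95052223-95052372, minus strand: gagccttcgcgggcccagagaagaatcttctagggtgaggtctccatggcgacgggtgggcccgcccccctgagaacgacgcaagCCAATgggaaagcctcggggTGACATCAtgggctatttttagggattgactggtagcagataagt
*Atf3*, chr1:191183334-191183483, minus strand: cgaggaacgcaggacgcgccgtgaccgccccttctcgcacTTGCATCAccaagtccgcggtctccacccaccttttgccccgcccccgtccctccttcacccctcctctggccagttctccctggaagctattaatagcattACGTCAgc
The *Atf3* window lies within the span of the gene, since GENCODE also lists transcripts that start farther upstream, and its last few bases belong to a GENCODE first exon. The *Fos* window held TGACGT, the core of the cyclic AMP response element, at -66 to -61 and the TATA box TATAAA at -33 to -28. The *Jun* window held TGACATCA, an AP-1-like element, at -45 to -38 and a CCAAT box at -65 to -61, and the *Junb* window held a CCAAT box at -36 to -32. The *Atf3* window held TTGCATCA, the reverse complement of the C/EBP-ATF composite TGATGCAA, at -110 to -103 and ACGTCA, the reverse complement of TGACGT, at -8 to -3. Searched on both strands of the 250 bases upstream of 32851 starts, TGACGT was found in 6.47%, TGACATCA in 2.93%, TGATGCAA in 0.791%, TATAAA in 12.4% and CCAAT in 33.8%. The full element TGACGTCA, which contains TGACGT, was in 1.55%, the AP-1 element TGACTCA in 4.46% and the CArG box in 1.47%. None of these 3 was in the 250 bases upstream of the 8 genes. Sites farther upstream were not searched, nor was any promoter of *Fosl1* and *Egr1*, so the genes cannot be said to lack these elements. A match is a string of letters and not evidence of binding.

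To compare how many cells carried a transcript, every cell was thinned at random to 10500 UMIs, and shallower cells were left out (1103 of PC5 and 275 of PC20), which left 8847 PC5 and 4474 PC20 cells. *Egr1* was then seen in 88.1% of PC5 cells (95% interval 87.5 to 88.8) and 69.7% of PC20 cells (68.3 to 71.1), against 91.0% and 86.0% before thinning. *Fos* was seen in 36.3% (35.3 to 37.3) and 20.9% (19.7 to 22.1), *Junb* in 67.8% and 36.7%, and *Fosl2* in 52.2% and 27.9%. *Fosl1* was seen in 40.7% (39.6 to 41.7) of PC5 cells and 72.2% (70.8 to 73.5) of PC20 cells, and *Ier3* in 55.8% and 72.9%. *Jund* was in 81.9% and 85.6%, *Jun* in 60.3% and 62.0% and *Fosb* in 9.26% and 14.6%. *Atf3* was in 1.53% of PC5 cells (1.28 to 1.80) and 24.8% of PC20 cells (23.5 to 26.1), and in 2.97% and 53.7% before thinning. The order of the libraries was the same as that of the CPM for all 10 genes. The libraries hold no cell type known to lack these 10 genes, so how much of a share came from free RNA of the culture was not tested.

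**Figure D3:**
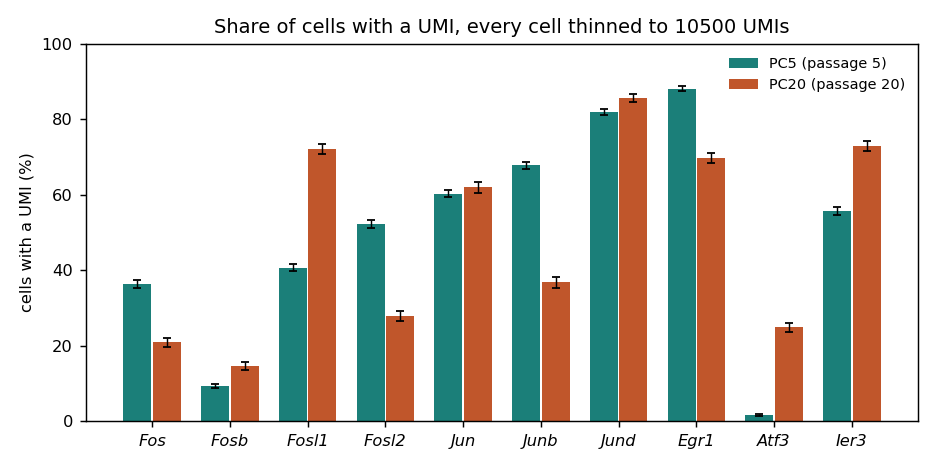
The share of cells with at least 1 UMI of each gene, in percent, after every cell was thinned to 10500 UMIs, in PC5 (green, 8847 cells) and PC20 (orange, 4474 cells), with Clopper-Pearson 95% intervals. *Atf3* is in 1.53% of PC5 and 24.8% of PC20 cells, and *Junb* in 67.8% and 36.7%.

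A thinned cell showed a median of 5 of the 10 genes in both libraries, with quartiles of 4 and 6. All 10 were seen together in 2 PC5 cells and 3 PC20 cells, and none in 37 and 32. The genes differed in how evenly cells shared the transcripts. The 10% of cells with the most *Fos* UMIs held 50.4% of them in PC5 and 70.7% in PC20, and for *Junb* the figures were 32.3% and 53.0%. For *Jund* they were 28.6% and 31.5%, and for *Egr1* 28.2% and 36.1%. The variance beyond counting noise, relative to the squared mean, was 1.37 for *Fos* in PC5 and 4.70 in PC20, above 96.0% and 99.6% of the genes seen in at least 10% of thinned cells. For *Junb* it was 0.362 and 2.30, above 78.8% and 98.4% of those genes, and for *Fosl1* 0.256 and 0.377, above 66.0% and 78.3%. *Fos* and *Junb* were thus both scarcer and more unevenly spread in PC20 than in PC5, whereas *Fosl1* lay nearer the median gene, at 0.184 in PC5 and 0.180 in PC20. A larger variance in PC20 was not particular to scarcer genes, since all of the 10 but *Atf3* had it. Among them were *Jund* (0.29 and 0.668) and *Ier3* (0.646 and 0.773), both more abundant in PC20. *Atf3* had 1032 in PC5, where 1 cell held 86 of its thinned UMIs, and 1.01 in PC20. Its variance without that cell was not computed. In PC5 the value of *Fosb* was larger than that of *Fos*. The share of the top 10% of cells also depends on level, and was 100% for *Fosb* in PC5, where 9.26% of thinned cells had it.

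Within cells, *Fos*, *Junb* and *Egr1* varied together in both libraries. Across thinned cells, Pearson's *r* of log2(UMIs + 1) was 0.172 in PC5 and 0.249 in PC20 for *Fos* and *Junb*, 0.208 and 0.242 for *Fos* and *Egr1*, and 0.231 and 0.222 for *Junb* and *Egr1*. These are correlations over cells of 1 library, which share its depth and handling, and they are given as descriptions with no test. Between *Fos* and all 7440 genes of PC5 seen in at least 10% of thinned cells, 95% of *r* lay between -0.083 and 0.067, and between *Fos* and 7292 such genes of PC20 between -0.10 and 0.096. *Fosb* had *r* of 0.120 and 0.196 with *Fos*, 0.104 and 0.106 with *Egr1*, and 0.075 and 0.053 with *Junb*. Pairs with *Atf3* were left out in PC5, where under 5% of thinned cells had it, and kept in PC20. The pairs not made of 2 of these 4 genes then ranged from -0.057 to 0.077 in PC5 (30 pairs) and from -0.062 to 0.122 in PC20 (39 pairs). These ranges take in the pair of *Fosb* with *Junb* in both libraries, and that of *Fosb* with *Egr1* in PC20. The median *r* was 0.042 over the 36 pairs of PC5 and 0.041 over the 45 pairs of PC20. At such sizes a correlation of sparse counts is no finding.

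Counting noise lowers these values. With the noise taken out of the variance, an alternative chosen after seeing the data, *r* was 0.44 in PC5 and 0.43 in PC20 for *Fos* and *Junb*, 0.34 and 0.49 for *Fos* and *Egr1*, 0.49 and 0.41 for *Junb* and *Egr1*, and 0.41 and 0.48 for *Fos* and *Fosb*. These values also differ from the plain ones in being taken from thinned UMIs without log and, in PC5, without the cell rich in *Atf3*. The pairs of *Fosb* with *Junb* (0.29 and 0.12) and *Egr1* (0.30 and 0.26) were lower. The 30 pairs outside the 4 genes and without *Atf3* reached 0.34 in PC5 and 0.26 in PC20, so in PC5 the value of *Fos* and *Egr1* did not stand above them. In PC20 *Jun* and *Atf3*, a pair left out of these 30, had 0.29, above both of the *Fosb* pairs just named. The plain values for the 3 pairs of *Fos*, *Junb* and *Egr1* stayed above 0 among cells with 0 UMIs of a list of G2/M genes, where they ran from 0.172 to 0.219 in PC5 and from 0.222 to 0.314 in PC20. In counts of cells, 53.1% of PC20 cells with a *Fos* UMI also had a *Junb* UMI against 32.4% of those without, and in PC5 the shares were 75.2% and 63.6%. From the 20% of cells with the fewest to the 20% with the most *Egr1* UMIs, the mean of *Fos* went from 0.333 to 0.904 UMIs per cell in PC5 and from 0.156 to 0.792 in PC20, while that of *Fosl1* went from 0.525 to 0.608 and from 1.64 to 1.59. Between these groups *Fosl1* differed far less than *Fos*.

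**Figure D4:**
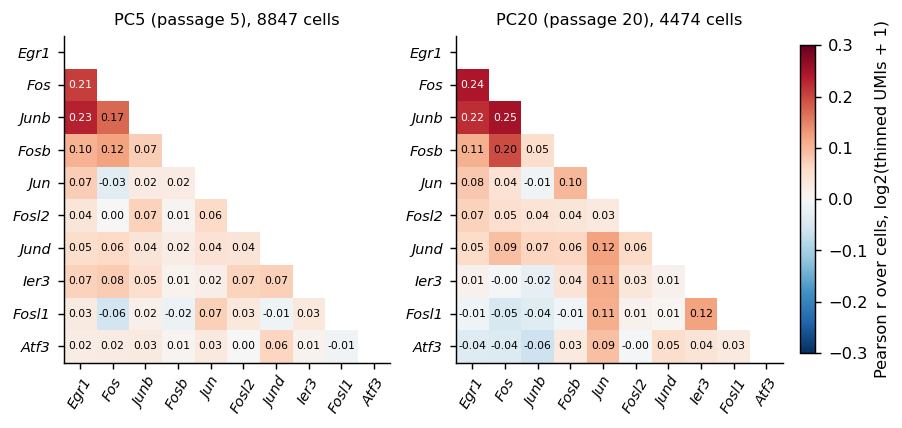
Pearson's *r* over thinned cells of log2(UMIs + 1) for each pair of the 10 genes in PC5 (left, 8847 cells) and PC20 (right, 4474 cells), from blue (-0.3) over white (0) to red (0.3). The block of *Egr1*, *Fos* and *Junb* at the top left is the darkest in both, from 0.172 to 0.231 in PC5 and from 0.222 to 0.249 in PC20.

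The genes most like each member over cells, among all genes seen in at least 10% of thinned cells, also differed by gene and library. For *Egr1* in PC5 *Junb* and *Fos* led (*r* of 0.231 and 0.208), and in PC20 they were *Cyr61*, an immediate-early matrix gene, *Malat1* and *Fos* (0.268, 0.244 and 0.242). For *Junb* in PC20 they were *Nfkbia*, the inhibitor that NF-kB induces, *Tpt1* and *Mt1* (0.367, 0.289 and 0.274), where in PC5 *Egr1*, *Fth1* and *Fos* led (0.231, 0.182 and 0.172). For *Fos* they included *Fth1* and *Cp* in PC5 (0.231 and 0.208), and were *Cp*, *Mgp* and *Ogn* in PC20 (0.279, 0.276 and 0.268). *Jund* went with the immediate-early genes *Rhob* and *Klf4* in PC5 (0.204 and 0.190) and with *Ndrg1*, *Bsg* and *Bnip3* in PC20 (0.263, 0.221 and 0.209), of which *Ndrg1* and *Bnip3* are induced by low oxygen. *Fosl1* had *Hmga2*, a chromatin protein of growing cells, among its 3 in both libraries (0.133 and 0.167), and *Hmga2* also came first for *Jun* in PC5 (0.185). *Atf3*, which was seen often enough only in PC20, had *Hspa5*, a chaperone of the endoplasmic reticulum, *Gadd45a* and *Rars* (0.140, 0.138 and 0.129), and *Ier3* had *Lox* in PC5 (0.171) and *Ero1l* in PC20 (0.190) in first place.

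Cells with many G2/M transcripts, which mark division, carried less *Fos*. Cells were ranked within a library by their thinned UMIs of 18 G2/M genes, and the 20% with the most were set over the 20% with the fewest, in log2 ratios that are here between cells of 1 library. The mean of *Fos* was 0.814 UMIs per cell in the cells with the fewest and 0.328 in the cells with the most in PC5, a log2 ratio of -1.31 (-1.45 to -1.17), and the PC20 means of 0.560 and 0.217 gave -1.37 (-1.61 to -1.13). *Junb* had log2 ratios of -0.39 in PC5 and -0.94 in PC20, *Egr1* of -0.37 and -0.65, and *Jund* of -0.24 and -0.60. *Fosl1* was higher in the G2/M-high cells of both libraries, at 0.676 against 0.493 UMIs per cell in PC5 and 2.02 against 1.45 in PC20, which is 0.45 (0.33 to 0.58) and 0.48 (0.38 to 0.58) as log2 ratio. With intervals that leave out 0, 7 of the 10 genes were lower in the G2/M-high cells of PC5 and 8 of 10 in those of PC20, while by the same rule 22.7% of 7426 genes and 22.0% of 7275 genes were lower there. This background holds genes seen in at least 10% of thinned cells, a share that *Fosb* and *Atf3* did not reach in PC5. Intervals also leave out 0 more easily at higher counts, and the background was not matched for level. In the other direction 2 of the 10 passed in PC5, *Fosl1* and, through 1 cell, *Atf3*, against 45.6% of genes, and 1 of the 10 in PC20, *Fosl1*, against 30.1%. *Atf3* had 0.0186 and 0.0187 UMIs per cell in the PC5 groups once the cell named above was left out, where the log2 ratio with it was 1.85, and a log2 ratio of -0.52 in PC20. The G2/M-high cells were also deeper before thinning, at a median of 28277 against 20645 UMIs in PC5 and 44532 against 30491 in PC20, and cells vary by more than counting error, so the intervals over cells are too narrow. Ranked by UMIs per cell before thinning, the 20% deepest over the 20% shallowest cells had log2 ratios of -0.66 in PC5 and -0.59 in PC20 for *Fos*, -0.38 and -0.33 for *Junb*, and -0.34 and 0.03 for *Egr1*, so *Fos* and *Junb* were lower in deep cells too. *Fosl1* had 0.13, with an interval that holds 0, in PC5 and 0.27 (0.16 to 0.38) in PC20. *Jund* had 0.29 in PC5, against its sign for the G2/M list, and -0.21 in PC20. How much of the G2/M result goes with depth was not tested.

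For 18 S phase genes the pattern was alike for *Fos*, with log2 ratios of -0.96 in PC5 and -1.49 in PC20. *Junb* had -0.37 in PC5 and -1.52 in PC20, where it went from 1.05 UMIs per cell in the cells with the fewest to 0.367 in those with the most. Other genes did not follow: in PC20 *Jun*, *Atf3* and *Ier3* had 0.33, 0.34 and 0.27, against -0.19, -0.52 and -0.27 for the G2/M list. With intervals that leave out 0, 4 of the 10 genes were higher and 5 lower in PC20, and 3 were higher and 4 lower in PC5. No share of all genes was computed by that rule for the S phase list. By any margin, 65.4% of 7428 genes lay above 0 in PC5 and 63.6% of 7277 in PC20, which cannot be set against these counts. The cells with the most S phase UMIs also held more G2/M UMIs, on average 13.0 against 2.08 in PC5 and 24.6 against 4.64 in PC20. They were deeper too, at a median of 26816 against 21016 UMIs in PC5 and 36730 against 31283 in PC20. The S phase and G2/M rankings are therefore not separate results. All 18 G2/M genes were higher in PC20, where their summed level was 1933 CPM against 748 CPM in PC5. Within cells with 0 G2/M UMIs (2082 of PC5 and 446 of PC20), an alternative chosen after seeing the data, the log2 ratio between the libraries was 0.40 for *Fos*, 0.58 for *Junb*, 1.06 for *Fosl2*, 0.70 for *Egr1*, -1.58 for *Fosl1* and -4.02 for *Atf3*. In cells with 12 or more G2/M UMIs (1838 and 1716) it was 0.53, 1.24, 1.15, 1.01, -1.46 and -2.21, with the 1 PC5 cell rich in *Atf3* among them. Each of the 10 genes had the sign of its overall ratio in both groups.

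Cells rich in targets of ATF4, the factor of the amino acid and unfolded protein responses, differed between the libraries in their immediate-early genes. In PC20, from the 20% of cells with the fewest to the 20% with the most UMIs of 18 ATF4 targets, *Atf3* went from 0.193 to 0.390 UMIs per cell, a log2 ratio of 1.01 (0.75 to 1.29), and *Ier3* from 1.27 to 2.19, a log2 ratio of 0.78 (0.67 to 0.89). *Fosl2* (0.60), *Fosb* (0.37), *Jund* (0.30), *Fosl1* (0.18) and *Jun* (0.15) were also higher. *Junb* went the other way, from 1.14 to 0.532, a log2 ratio of -1.10 (-1.26 to -0.94), as did *Egr1* with -0.43 and *Fos* with -0.32, and no other of the 10 genes was lower. The 10% and 90% points of the genes seen in at least 10% of thinned PC20 cells were -0.28 and 0.37. *Jund*, *Fosl1* and *Jun* thus lay among most of these genes and *Fosb* at the upper point. In PC5 the values of *Junb*, *Egr1* and *Fos* were 0.21, 0.10 and 0.35, and that of *Atf3* was 1.19 (0.53 to 1.89) without the cell rich in it and 2.42 with it. The same points in PC5 were -0.11 and 0.25, so *Junb* and *Egr1* lay among most genes there. The PC5 cells with the most held 13.4 UMIs of these targets on average, fewer than the 24.0 of the PC20 cells with the fewest, so the groups of the libraries do not cover the same range.

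PC20 cells rich in NF-kB targets carried more *Junb*, *Fos* and *Egr1*, with log2 ratios of 1.12 (0.96 to 1.28), 1.02 (0.80 to 1.24) and 0.73 (0.63 to 0.83), where 90% of all genes lay below 0.39. In PC5, where 90% of the genes chosen by the same rule lay below 0.27, the largest were *Fosl2* with 0.35 and *Fosl1* with 0.33, and *Junb*, *Egr1* and *Fos* had 0.28, 0.22 and 0.12. Different genes made up this list's summed 810 CPM in PC5 and 806 CPM in PC20. *Ccl2* had 302 and 8.58 CPM and *Ccl7* 160 and 1.94 CPM, while *Csf1* had 95.9 and 378 CPM. The cells rich in NF-kB targets thus do not rest on the same genes in the 2 libraries. By the mitochondrial share of UMIs, *Fosb* stood apart, with 0.033 UMIs per cell in the 20% of cells with the lowest share and 0.145 in the 20% with the highest in PC5, and 0.079 and 0.261 in PC20, log2 ratios of 2.12 (1.70 to 2.55) and 1.72 (1.33 to 2.12). Within bins of the mitochondrial share, chosen after seeing the data, the log2 ratio of *Fosb* between the libraries ran from -1.95 to -0.84. Before thinning, the cells of lowest and highest share held medians of 26551 and 20188 UMIs in PC5, and 33424 and 34886 in PC20. By UMIs per cell, the deepest over the shallowest 20% gave *Fosb* log2 ratios of -1.66 in PC5 and -0.79 in PC20. How much of the *Fosb* result goes with depth was not tested, and no range over all genes was computed for the mitochondrial ranking.

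**Figure D5:**
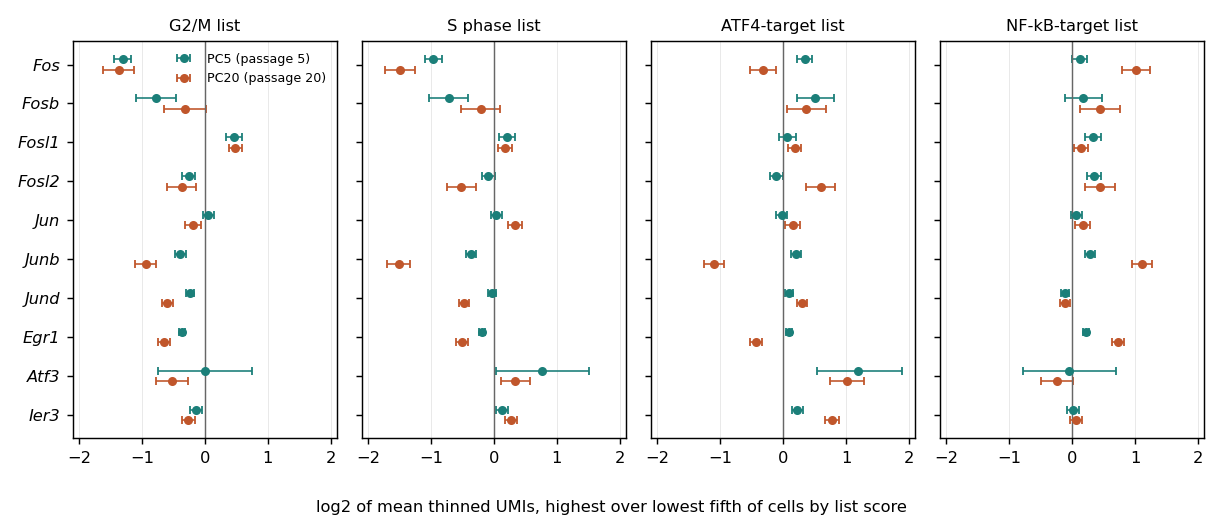
The log2 ratio of mean thinned UMIs in the 20% of cells with the most over the 20% with the fewest UMIs of the G2/M, S phase, ATF4-target and NF-kB-target lists, for each gene in PC5 (green) and PC20 (orange), with 95% counting intervals, *Atf3* in PC5 without the cell that held 189 of its UMIs. *Fos* lies at -1.31 and -1.37 for the G2/M list, *Fosl1* at 0.45 and 0.48, and *Junb* at 0.21 in PC5 and -1.10 in PC20 for the ATF4-target list.

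The genes around AP-1 did not share 1 direction. Of 46 other immediate-early genes 41 were expressed, 14 with a log2 ratio above 1 and 6 below -1, with a median of 0.25. Those farthest toward PC5 were *Ctgf* (238 and 5.37 CPM), *Rhob* (188 and 18.2 CPM) and *Klf2* (29.9 and 2.99 CPM), a matrix protein, a small GTPase and a flow-sensitive factor. Those farthest toward PC20 were *Dusp4*, a MAP kinase phosphatase (12.1 and 213 CPM), the kinase *Pim1* (2.06 and 23.3 CPM) and the stress gene *Gadd45b* (6.77 and 46.5 CPM). Of 23 genes upstream of AP-1 (MAP kinases, SRF and its cofactors, CREB and the ligase *Fbxw7*), 22 were expressed, 6 with a ratio above 1 and 0 below -1, with a median of 0.77, led by the SRF cofactor *Mkl2* (29.7 and 7.44 CPM), *Elk3* (111 and 29.0 CPM) and *Crem* (20.2 and 6.52 CPM). Of 19 bZIP factors that can pair with AP-1 proteins 15 were expressed, 2 above 1 and 5 below -1. *Maf* stood out toward PC5 (120 and 20.0 CPM), and *Ddit3* (22.4 and 894 CPM), *Cebpg* (28.1 and 135 CPM) and *Atf4* (104 and 433 CPM) toward PC20.

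Of 21 genes known as AP-1 targets 18 were expressed, 10 with a log2 ratio above 1 and 2 below -1, with a median of 1.39. The cytokine *Il11* (14.9 and 0.246 CPM), the matrix protease *Mmp3* (32.5 and 0.738 CPM) and the urokinase gene *Plau* (22.3 and 0.518 CPM) were farthest toward PC5, and *Hmox1* (57.0 and 592 CPM), which NRF2 also controls, and *Plaur* (13.1 and 41.3 CPM) toward PC20. All 18 ATF4 targets were expressed, with 15 below -1, 0 above 1 and a median of -2.48, among them *Trib3* (2.17 and 142 CPM). Of 17 NF-kB targets 15 were expressed, 5 above 1, such as *Ccl7* (160 and 1.94 CPM), and 5 below -1, such as *Cxcl10* (8.94 and 77.7 CPM). Of 13 contractile and cytoskeletal targets of SRF 12 were expressed, 5 above 1 and 0 below -1, with *Tagln* at 219 and 0.230 CPM. Of 8 heat shock genes, known to respond to stress, that of handling included, 0 were above 1 and 1 was below -1 (*Hspb1*, 90.4 and 258 CPM). The background for these counts is the 17.9% and 19.1% given above, and the lists share some genes, such as *Ddit3*, which is both a bZIP factor and an ATF4 target.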

How the data were processed

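The authors mapped reads of 10x Genomics 3' v3.1 libraries to the mouse genome mm10 with Cell Ranger 5.0 (5.0.1 per the file headers), called cell barcodes and deposited raw counts of UMIs per gene and cell, with no normalization. The annotation release is not given in the sources used here. The kit marks strand, and *Fosl1*, *Jun*, *Junb*, *Jund* and *Atf3* overlap genes of the other strand.

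Libraries were grouped by passage as labelled. The cell filter (over 1000 genes, mitochondrial share below 20%) is that of the study's methods. No doublet caller was run, and an alternative left out the 5% of cells with the most UMIs. CPM, exact Poisson, conditional binomial and Clopper-Pearson 95% intervals, thinning to 10500 UMIs (the 10% point of depth over both libraries, rounded down to a multiple of 500), correlations and rankings of cells by list score (ties in file order) were computed in Python 3.11.15 with numpy 2.4.6, scipy 1.17.1 and pandas 2.3.3, and tested on simulated data. Positions are from GENCODE vM21 on GRCm38.

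The members, lists and most alternatives were chosen with earlier results of these data known. Named were all 10 genes, the 3 genes of a list farthest from 0 in each direction with at least 10 CPM in the higher library (fewer where the text needs fewer, and some are not reported here), and for each member seen in at least 20% of thinned cells the 3 genes with the highest *r*, without pseudogenes and unnamed models. Marker genes and the *Atf3*-rich cell's genes are named outside this rule. The alternatives were stricter or no cell filters, leaving out cells that held *Mki67* or *Top2a*, other depths, other scalings, other correlation measures and another random seed.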

Additional observations from a re-analysis of the deposited data

Results flagged for a closer look

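Of 89 comparisons of a gene between the 20% of cells with the most and the 20% with the fewest UMIs of a list (or by mitochondrial share, depth or *Egr1*), 11 had opposite signs in PC5 and PC20 with both counting intervals leaving out 0 once the PC5 cell that held 189 *Atf3* UMIs was left out for *Atf3*. With that cell there were 14, the other 3 being *Atf3* by G2/M genes (1.85 and -0.52), by SRF targets (-1.66 and 0.30) and by *Egr1* (1.90 and -0.32). The difference between the libraries was not tested, since each has 1 sample. How often any gene had opposite signs by this rule was not computed, so the count has no background. By ATF4 targets the log2 ratios in PC5 and PC20 were 0.35 and -0.32 for *Fos*, 0.21 and -1.10 for *Junb*, 0.10 and -0.43 for *Egr1*, and -0.11 and 0.60 for *Fosl2*. The PC5 values of *Junb*, *Egr1* and *Fosl2* lay within the 10% and 90% points of the genes seen in at least 10% of thinned cells there, -0.108 and 0.246. By SRF targets the log2 ratios were 0.19 and -0.33 for *Fosl2*, and 0.14 and -0.15 for *Jund*. Much of the level of that list was *Actb*, with 10271 of 15369 CPM in PC5 and 2614 of 5949 CPM in PC20. The values of *Jund* lay within the 10% and 90% points of genes chosen by that rule, -0.30 and 0.55 in PC5 and -0.29 and 0.52 in PC20. By heat shock genes the log2 ratios were -0.11 and 0.29 for *Junb*, 0.12 and -0.10 for *Jund*, and 0.14 and -0.20 for *Ier3*. These values lay within the 10% and 90% points of genes chosen by that rule, -0.28 and 0.46 in PC5 and -0.26 and 0.33 in PC20. By mitochondrial share *Junb* had 0.12 and -0.81, and by UMIs per cell *Jund* had 0.29 and -0.21.

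The barcodes left out by the cell filter also held transcripts of the 10 genes, above the limit that a count of 0 allows. They summed to 628 CPM in the 679 barcodes of PC5 (limit 3.25 CPM) and 679 CPM in the 135 barcodes of PC20 (limit 16.3 CPM), lower than the 1068 and 1063 CPM of the kept cells.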

How the results depend on the processing

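Under the 9 alternatives tried, 4 genes stayed higher in PC5 and 6 in PC20. Of 150 alternative log2 ratios of single genes 0 reversed and 76 lay outside the counting interval. The *Jund* share of Jun UMIs was 45.9% in PC5 and 58.3% in PC20 without the 5% of cells with the most UMIs, 45.9% and 59.8% in cells with no *Mki67* or *Top2a*, 45.5% and 58.8% after thinning, and 45.2% and 58.6% as a mean over cells. The *Fosl1* share of Fos UMIs was 26.5% and 64.9%, 23.3% and 59.0%, 26.1% and 63.7%, and 26.0% and 63.3% in the same order. The median pairwise *r* was 0.097 in PC5 without thinning, and 0.132 in PC5 and 0.105 in PC20 with counting noise taken out. Correlations for the pairs of *Fos*, *Junb* and *Egr1* ran from 0.124 to 0.370 over 48 alternative values. Among these were rank correlations, values without log, other depths and values without thinning, which gave the highest. *Atf3* between PC5 cells with many and few SRF-target UMIs went from -1.66 to 0.26 on the log2 scale without the cell that held 189 of its UMIs. No paired analysis was possible because each passage has 1 library. Depth limits *Atf3* in PC5, with 385 UMIs outside that cell, and *Fosb*, with 2026.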

Other observations

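The PC5 cell that held 189 *Atf3* UMIs carried other stress transcripts far above what its 27731 UMIs would hold at the library's average. It had 221 UMIs of *Mdm2*, the p53 target that limits p53, where the average share gives 6.04, 53 of *Ddit3* (0.621), 47 of the death gene *Pmaip1* (0.555) and 13 of the stress cytokine *Gdf15* (0.0440). *Cdkn1a*, another p53 target, had 0 where the average share gives 10.9. It had 123 G2/M UMIs and 1.62% mitochondrial UMIs. These genes were chosen after their values were seen, and 1 cell is no group.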
